A study of Homo sapiens with 6 samples.

Results

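The genes described here are 45 genes of the NRF2 antioxidant response and of glutathione metabolism. All were chosen by name from the 27968 genes of the deposited tables, with earlier results of these data known. They were measured in H23 cells, an established human lung adenocarcinoma line grown in RPMI1640 medium with serum. A control siRNA had been transfected for 3 libraries and, for another 3, an siRNA specific for HOTAIR-N, named after the long non-coding RNA gene HOTAIR. Both groups received the RNAiMAX transfection reagent, and total RNA, cleared of ribosomal RNA and sequenced as stranded libraries, was taken 48 hours later. Each library came from its own transfection of this single line, so the tests measure the spread between transfections. Sequences of the siRNAs were not used here.

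NRF2, encoded by NFE2L2, is a transcription factor that KEAP1 holds low by handing it to a CUL3 ubiquitin ligase. Oxidants and electrophiles modify KEAP1, NRF2 then accumulates, pairs with a small MAF protein and binds antioxidant response elements in genes that make glutathione, reduce thioredoxin, supply NADPH and detoxify quinones. Glutathione peroxidases and peroxiredoxins remove peroxides, glutathione transferases couple glutathione to electrophiles, and ferritin stores iron. Loss of KEAP1 function is a known way in which lung adenocarcinomas switch this programme on.

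Sequence is shown first for GSTP1 and ME1. GSTP1, which encodes the pi class glutathione transferase, changed most among the members. ME1, the cytosolic malic enzyme, changed in the opposite direction. Both genes have the same 9 letters close to their start, a match to the core of an antioxidant response element. Whether NRF2 binds there was not tested. Both promoters are from RefSeq on GRCh38.p14, from 250 bases before to 50 bases after the annotated start, at chr11:67583562-67583861 on the plus strand for GSTP1 and chr6:83431002-83431301 on the minus strand for ME1. Capitals mark each match to the core TGACNNNGC on either strand.
GSTP1: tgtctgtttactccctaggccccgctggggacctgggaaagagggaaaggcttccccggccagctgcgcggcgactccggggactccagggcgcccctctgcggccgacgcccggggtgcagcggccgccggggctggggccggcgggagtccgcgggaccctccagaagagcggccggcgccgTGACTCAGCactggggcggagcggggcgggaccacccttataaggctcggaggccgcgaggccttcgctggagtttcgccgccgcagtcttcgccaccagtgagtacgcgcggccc
ME1: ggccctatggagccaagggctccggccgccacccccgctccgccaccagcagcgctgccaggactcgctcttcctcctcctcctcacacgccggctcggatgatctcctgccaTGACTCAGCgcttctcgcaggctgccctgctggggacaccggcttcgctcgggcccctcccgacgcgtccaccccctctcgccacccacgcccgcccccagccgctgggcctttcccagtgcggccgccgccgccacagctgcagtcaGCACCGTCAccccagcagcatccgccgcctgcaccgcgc

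In GSTP1 the match TGACTCAGC begins 66 bases before the start, and in ME1 the same letters begin 137 bases before it. ME1 also has a match on the opposite strand, TGACGGTGC, 11 bases after the start. The core was held by 13.6% of 27305 promoters of the same length, and by 15.0% of the 11268 that belong to tested genes. Of the 36 member genes with a promoter entry, 8 held it, or 22.2%. The others were GCLM with TGACTAAGC, TXNRD1 with TGACTTCGC and TGACGGAGC, PGD with TGACATTGC, GPX2 with TGACTTAGC, GSTA4 with TGACCTGGC, and GSTO1 with TGACTGAGC and TGACACAGC. Elements that lie further from a start are outside these windows. Of the 7 tested genes with the core, 5 were higher with HOTAIR-N siRNA and 2 lower (edgeR quasi-likelihood test, adjusted p under 0.05), with a median log2 fold change of 0.32. Over all 15072 tested genes 57.5% passed, 28.7% as higher and 28.8% as lower. Of the 25 tested genes whose promoters lacked it, 12 were higher and 4 lower, with a median of 0.20.

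A second set of sequences is shown because 5 of the 7 members that fell carry them. These are sites of the words GACCAAT and ACCAATA (capitals) in messenger RNAs, from GENCODE release 29, each within 30 bases. The words had been picked out in an earlier scan of these same libraries, as words that went with lower expression, so a match among lower genes is no independent evidence.
GSTP1, 3' UTR: cctttctccagGACCAATAaaatttctaag
SRXN1, 3' UTR: atggctgaataGACCAATcgtgttccatct
PRDX6, 3' UTR: gcagggcttgtGACCAATgaagtcatattt
KEAP1, coding: tacaaccccatGACCAATcagtggtcgccc
GCLC, coding: gtcatcaatgtACCAATAtttaaggacaag
PRDX2, 3' UTR: gcctagaggtaACCAATAaagtattaggga
NQO1, 3' UTR: tgcagagataaACCAATAaatccacaccgt
TXNRD1, coding: gatgaagaacaGACCAATgtgccttacatc

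The first 5 of these genes were lower with HOTAIR-N siRNA and the last 3 higher. TXNRD1 carries a second coding site, with ACCAATA. In GSTP1, PRDX2 and NQO1 the site runs into AATAAA, the letters of the common polyadenylation signal. Of 39 tested members searched, 8 carried a word in the 3' UTR or coding sequence (20.5%), against 2652 of 13347 tested genes (19.9%). Among the 8 carriers 3 were higher and 5 lower, with a median log2 fold change of -0.40. Among the 31 without a word 18 were higher and 2, GCLM and FTL, were lower, with a median of 0.23. Over all genes searched, 463 of the carriers were higher and 1328 lower with a median of -0.21, and of the 10695 genes without a word 3399 were higher and 2725 lower, with a median of 0.04. The part of these words in any change was not tested.

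The libraries held 32715361 to 36578681 expected counts, which are RSEM's estimates of reads per gene. The HOTAIR gene, with 3 listed isoforms, had 169, 148 and 202 expected counts with control siRNA and 88, 74 and 82 with HOTAIR-N siRNA. For this gene total edgeR fitted a log2 fold change of -1.04 (adjusted p = 1.32e-05). Permuting the library labels exactly (two-sided) gave 0.1, which is as low as this design reaches. A level of HOTAIR-N alone is not given here. Of the 6 epithelial markers KRT8 and KRT18 were abundant, and EPCAM, KRT7 and KRT19 were at 1.08 to 7.99 TPM. CDH1 and KRT7 were higher with HOTAIR-N siRNA (log2 fold change 1.07 and 1.05). The 6 markers summed to 3715.6 to 4422.9 TPM with control siRNA and 2921.6 to 3291.9 with HOTAIR-N siRNA, KRT18 being lower at -0.71. Of 9 lung lineage and alveolar markers, 4 surfactant genes were under 0.1 TPM in every library and NKX2-1 was at 1.06 to 3.02 TPM. NKX2-1, LAMP3 and ABCA3 passed as higher (log2 fold change 1.02, 0.66 and 0.62). The list summed to 7.37 to 9.44 TPM with control siRNA and 12.4 to 14.4 with HOTAIR-N siRNA. In the same order, the sums were 10.1 to 11.9 and 10.4 to 12.4 TPM for blood cells, 0.21 to 0.33 and 0.35 to 0.43 for endothelium, and 3.00 to 3.15 and 4.17 to 4.70 for fibroblasts. Among these lists PTPRC, PECAM1 and DCN were at 0.02 TPM or less in every library, while CD68 was at 7.13 to 9.32, CD14 at 1.73 to 2.96 and COL3A1 at 0.78 to 1.02 TPM. LUM, at 1.31 to 1.54 TPM with control siRNA and 2.53 to 2.87 with HOTAIR-N siRNA, and VWF, at 0.04 to 0.07 and 0.11 to 0.12 TPM, passed as higher (log2 fold change 0.96 for each). The part of these marker shifts in the results below was not tested.

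Most of the antioxidant genes that changed rose a little, and GSTP1 fell by far the most. Of the 45 genes, 39 had enough counts to be tested, and 21 rose, 7 fell and 11 did not pass (edgeR quasi-likelihood test, adjusted p under 0.05). That is 28 of 39 called, beside 57.5% of all 15072 tested genes, of which 28.7% were higher and 28.8% lower. The median log2 fold change of the tested members was 0.20, beside 0.01 for all tested genes. Because the members were chosen with earlier results of these data known, this difference is no independent evidence. Log2 fold changes here are HOTAIR-N siRNA minus control siRNA, so negative values are lower after HOTAIR-N siRNA. The rises ran from 0.17 to 0.83, and the falls from -0.25 to -2.81. TPM values of the groups did not overlap for 29 of the 39 tested members, beside 61.2% of all tested genes. All 28 called members are among these 29. Only GSTP1 among the members changed by 2-fold or more, as 8.67% of all tested genes did. When the null hypothesis was a change within 1.5-fold, SOD2 (higher) and GSTP1 and SRXN1 (lower) passed, beside 11.3% of all tested genes. These are bulk libraries, in which fewer cells expressing a gene and less RNA per cell cannot be told apart.

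**Figure D1:**
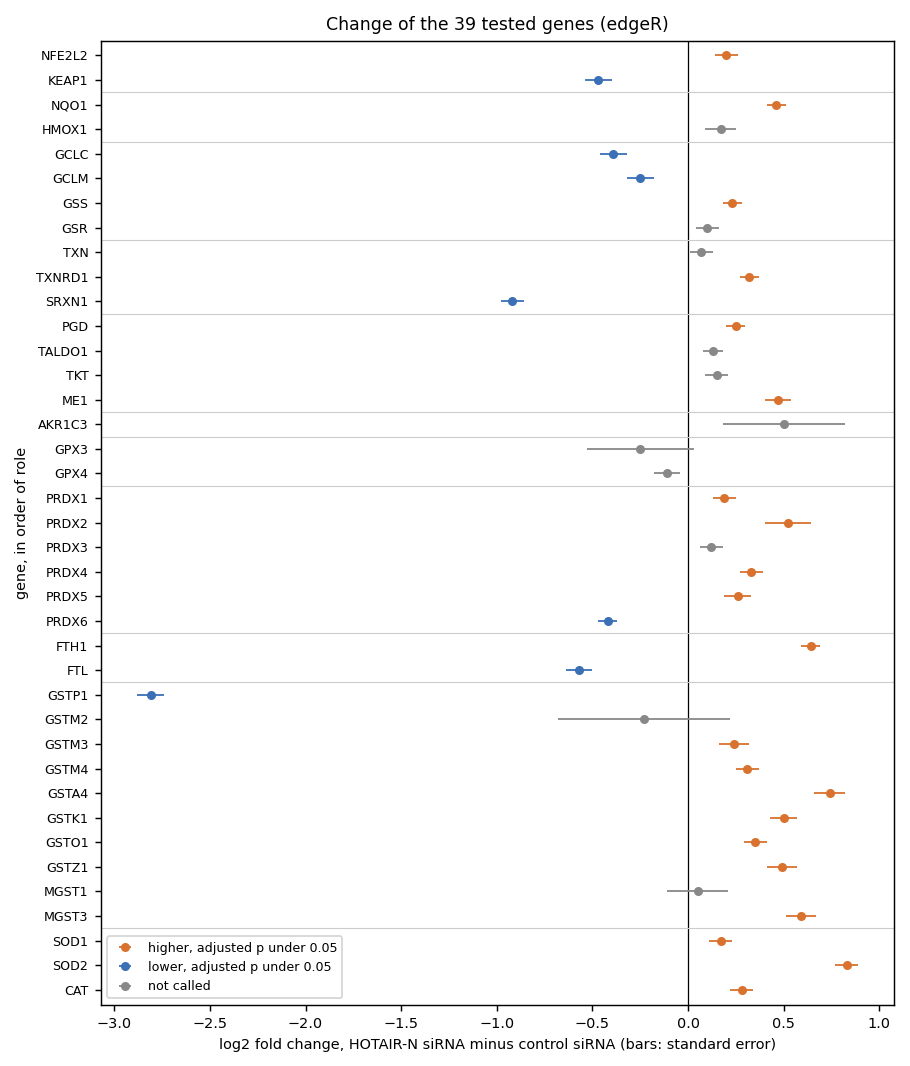
Log2 fold change of each tested gene (x axis, HOTAIR-N siRNA minus control siRNA) with its standard error as a bar, in order of role, from 3 libraries per group. Orange points passed the test and were higher, blue points passed and were lower, and grey points did not pass. GSTP1 at -2.81 stands apart from the other members, which lie between -0.92 and 0.83.

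The members ranged from near 0 to among the most abundant RNAs of the cell. In TPM, which divides by gene length and so allows comparison between genes, FTH1, GSTP1 and FTL ranked 69, 76 and 81 among all genes with control siRNA. PRDX1, GPX4 and TXN followed, at ranks 103, 110 and 146. Together the 45 genes made up 1.39 ± 0.04% of all TPM with control siRNA and 1.31 ± 0.0042% with HOTAIR-N siRNA (SD, n = 3 each).

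**Figure D2:**
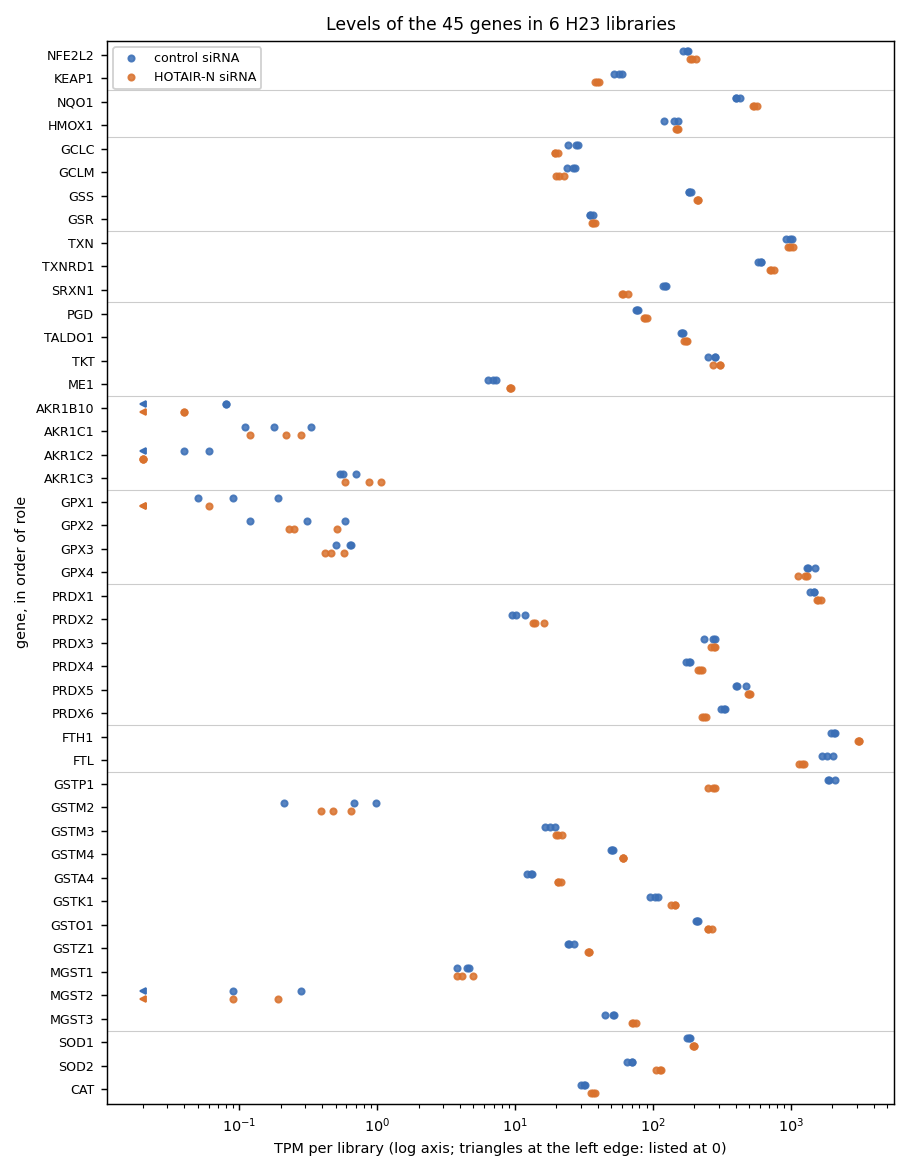
TPM of each of the 45 genes (log axis) in the 3 control siRNA libraries (blue) and the 3 HOTAIR-N siRNA libraries (orange), 1 point per library, with triangles where a gene is listed at 0. The GSTP1 points of the groups lie far apart, at 1850.39 to 2088.87 and 252.68 to 281.34, while AKR1B10, AKR1C1, AKR1C2, GPX1, GPX2 and MGST2 stay at 0.59 TPM or less.

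NRF2 and its inhibitor moved in opposite directions. NFE2L2 was at 164.18, 178.03 and 180.95 TPM with control siRNA and 205.65, 187.43 and 190.99 with HOTAIR-N siRNA. The lowest treated library lay above the highest control library by a small margin, and the log2 fold change was 0.20 with a standard error (SE) of 0.06 (edgeR, adjusted p = 0.00687). KEAP1, the adaptor that marks NRF2 for destruction, was at 59.59, 56.54 and 52.06 TPM against 38.02, 40.53 and 39.47. It was lower in all 3 treated libraries, with a log2 fold change of -0.47 (SE 0.07, edgeR adjusted p = 2.64e-05). The ratio of NFE2L2 to KEAP1 RNA per library was 2.76, 3.15 and 3.48 with control siRNA and 5.41, 4.62 and 4.84 with HOTAIR-N siRNA. NRF2 is regulated mostly as a protein, which these libraries do not measure.

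Of the quinone and heme enzymes, NQO1 rose and HMOX1 did not pass. NQO1, the quinone reductase often read as a marker of NRF2 activity, was at 399.86, 427.00 and 402.65 TPM with control siRNA and 565.76, 537.00 and 531.01 with HOTAIR-N siRNA. All treated libraries were above all controls, with a log2 fold change of 0.46 (SE 0.05, edgeR adjusted p = 2.22e-06). HMOX1, the inducible heme oxygenase, was at 152.42, 141.21 and 119.53 against 150.14, 147.41 and 152.81 TPM. The groups overlapped and the log2 fold change was 0.17 (edgeR, adjusted p = 0.0717). Without control replicate 1, its highest control library, HMOX1 passed at 0.27 (edgeR, adjusted p = 0.000461), and with unscaled library sizes at 0.19 (adjusted p = 0.0487).

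Glutathione synthesis did not move as a block. The subunits of glutamate-cysteine ligase, the rate-limiting enzyme of the pathway, were lower. The catalytic subunit GCLC was at 24.24, 27.50 and 28.83 TPM with control siRNA and 19.65, 19.49 and 20.44 with HOTAIR-N siRNA, a log2 fold change of -0.39 (SE 0.07, edgeR adjusted p = 0.000166). The modifier subunit GCLM was at 23.95, 27.32 and 26.48 against 22.84, 19.80 and 20.98 TPM, a log2 fold change of -0.25 (SE 0.07, edgeR adjusted p = 0.00629). Control replicate 1 was the lowest control for both genes, and GCLM missed the threshold without HOTAIR-N siRNA replicate 2 (edgeR, adjusted p = 0.0504). GSS, which adds glycine in the last step, was the most abundant of the 4 genes and rose from 185.0 ± 4.85 to 210.0 ± 2.24 TPM (SD, n = 3 each), with 0.23 as its log2 fold change (edgeR, adjusted p = 0.00228). GSR, the glutathione reductase, was at 34.85 to 37.03 and 36.30 to 37.86 TPM and did not pass (edgeR, adjusted p = 0.137).

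In the thioredoxin system the reductase rose and sulfiredoxin fell. SRXN1, which repairs overoxidised peroxiredoxins, was at 122.83, 125.10 and 118.73 TPM with control siRNA and 66.10, 60.22 and 61.12 with HOTAIR-N siRNA. By the fitted fold change the treated level was 52.7% of control, at -0.92 (SE 0.06, edgeR adjusted p = 6.72e-09), the largest fall among the members after GSTP1. TXNRD1, the cytosolic thioredoxin reductase, went from 583.27, 613.02 and 605.20 to 756.03, 709.19 and 717.67 TPM. Its groups did not overlap, and the log2 fold change was 0.32 (SE 0.05, edgeR adjusted p = 6.34e-05). Thioredoxin itself, TXN, was the most abundant of the 3 at 983.67, 922.98 and 1020.58 against 1038.08, 955.54 and 983.01 TPM. These overlapped, and TXN did not pass (log2 fold change 0.07, edgeR adjusted p = 0.327).

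All 4 enzymes of NADPH supply had positive log2 fold changes and 2 passed, or 50%, beside 57.5% of all tested genes. ME1, whose promoter is shown above, rose from 6.37, 7.34 and 6.94 to 9.41, 9.22 and 9.16 TPM, a log2 fold change of 0.47 (SE 0.07, edgeR adjusted p = 6.67e-05). PGD, the phosphogluconate dehydrogenase of the pentose phosphate pathway, rose from 76.8 ± 1.75 to 88.4 ± 2.03 TPM (SD, n = 3 each), at 0.25 (edgeR, adjusted p = 0.00131). TKT and TALDO1, which carry out the sugar rearrangements of that pathway, had 0.15 and 0.13 and lay just outside the threshold (edgeR, adjusted p = 0.0542 and 0.0527). TKT, the most abundant of the 4, was at 284.14, 281.22 and 251.66 against 273.14, 305.75 and 306.21 TPM, so its groups overlapped. Both TKT and TALDO1 passed with unscaled or upper-quartile scaled library sizes, with a stricter filter on low counts and without control replicate 1. TALDO1 also passed with limma-voom (adjusted p = 0.0489), and TKT with no filter (edgeR, adjusted p = 0.0405) and without HOTAIR-N siRNA replicate 1 (0.0313).

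Genes of the aldo-keto reductases, which reduce carbonyls and steroids and are strong NRF2 targets in many cells, were close to absent. AKR1B10, AKR1C1 and AKR1C2 had 0 to 7 expected counts in any library and were not tested. AKR1C3, with 10 to 20 expected counts, was at 0.57, 0.54 and 0.70 against 1.07, 0.59 and 0.87 TPM. Its groups overlapped and it did not pass (log2 fold change 0.50, SE 0.32, edgeR adjusted p = 0.2). These genes are close copies of each other, and in some libraries the expected counts of AKR1C1, AKR1C2 and AKR1C3 were not whole numbers, so the split of reads between them is uncertain.

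Among the glutathione peroxidases GPX4 had the highest TPM in the tables. GPX4, which reduces lipid peroxides in membranes, was at 1486.42, 1335.21 and 1303.52 TPM with control siRNA and 1127.47, 1316.84 and 1263.90 with HOTAIR-N siRNA. The groups overlapped, with a log2 fold change of -0.11 (SE 0.07, edgeR adjusted p = 0.199). GPX3, the secreted form, was at 0.42 to 0.65 TPM and did not pass (edgeR, adjusted p = 0.461). GPX2, the gut type enzyme, had 2 to 10 expected counts per library and was not tested. GPX1, the cytosolic enzyme, had 4, 1 and 2 expected counts with control siRNA and 0, 0 and 1 with HOTAIR-N siRNA, and was not tested either. Whether these near-zero values are the level of GPX1 in H23 cells or come from the annotation and counting behind the tables cannot be told from them, so the levels of GPX1 and GPX4 are not compared.

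Of the 6 peroxiredoxins 4 rose, 1 fell and 1 did not pass, beside 28.7% of all tested genes higher and 28.8% lower. PRDX1, the most abundant, was at 1463.19, 1380.83 and 1481.67 TPM with control siRNA and 1653.31, 1565.72 and 1553.61 with HOTAIR-N siRNA, a log2 fold change of 0.19 (SE 0.06, edgeR adjusted p = 0.011). It did not pass without HOTAIR-N siRNA replicate 1, its highest library (0.15, edgeR adjusted p = 0.07). PRDX2, another cytosolic peroxiredoxin, was far scarcer at 10.12, 9.46 and 11.77 against 13.95, 16.15 and 13.54 TPM. All of its treated libraries were higher, at 0.52 (SE 0.12, edgeR adjusted p = 0.00133), on 143 to 254 expected counts.

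PRDX6 went the other way. This peroxiredoxin, which also acts on phospholipids and is abundant in lung, was at 309.85, 335.14 and 326.53 TPM with control siRNA and 241.00, 228.45 and 235.74 with HOTAIR-N siRNA. The treated libraries were all lower, with a log2 fold change of -0.42 (SE 0.05, edgeR adjusted p = 6.47e-06). PRDX4, the form of the endoplasmic reticulum, rose from 180.6 ± 6.37 to 219.4 ± 6.34 TPM and PRDX5, found in mitochondria and peroxisomes, from 427.9 ± 38.2 to 498.4 ± 5.76 TPM (SD, n = 3 each). Mitochondrial PRDX3 was at 235.63 to 280.32 against 263.68 to 281.65 TPM and did not pass (edgeR, adjusted p = 0.109), except with upper-quartile scaling (adjusted p = 0.0497). Summed over the family, the level was 2646.9 ± 48.7 TPM with control siRNA and 2833.1 ± 63.4 with HOTAIR-N siRNA (SD, n = 3 each).

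The chains of ferritin changed in opposite directions. FTH1, the heavy chain with the ferroxidase site, was at 2068.95, 2086.90 and 1966.09 TPM with control siRNA and 3054.00, 3104.06 and 3101.09 with HOTAIR-N siRNA. It was higher in every treated library, with a log2 fold change of 0.64 (SE 0.05, edgeR adjusted p = 4.01e-08). FTL, the light chain that helps the iron core form, was at 2014.67, 1831.21 and 1692.99 against 1147.26, 1249.38 and 1203.07 TPM. It was lower in every treated library, at -0.57 (SE 0.07, edgeR adjusted p = 3.71e-06). The heavy to light ratio of TPM was thus 1.03, 1.14 and 1.16 with control siRNA and 2.66, 2.48 and 2.58 with HOTAIR-N siRNA, while their sum was 3886.9 ± 214 and 4286.3 ± 77.6 TPM (SD, n = 3 each). Expected counts of FTL were whole in every library, and those of FTH1 were whole in 3 libraries and 0.01 below a whole number in the other 3.

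Of the 11 glutathione transferase genes, GSTP1 fell and 7 rose, 2 did not pass and MGST2, at 0 to 3 expected counts, was not tested. That is 80% of the tested transferases called, beside 57.5% of all tested genes, of which 28.7% were higher and 28.8% lower. GSTP1 was at 2088.87, 1908.63 and 1850.39 TPM with control siRNA and 252.68, 272.06 and 281.34 with HOTAIR-N siRNA. Every treated library was far below every control, with a log2 fold change of -2.81, which is 14.3% of the control level (SE 0.07, edgeR adjusted p = 1.99e-12). It rests on 26168 to 30165 expected counts with control siRNA and 3519 to 4210 with HOTAIR-N siRNA, all whole numbers, and the tables list a single isoform, NM_000852. Leaving out each library in turn gave -2.73 to -2.85. Its log2 fold change was the 17th lowest of the 15072 tested genes, and its rank by TPM went from 76 to 527.

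The transferases that rose were each well below GSTP1 in control cells. GSTA4, an alpha class enzyme that acts on the lipid aldehyde hydroxynonenal, was at 12.14, 13.36 and 13.11 TPM with control siRNA and 20.37, 21.45 and 20.46 with HOTAIR-N siRNA (log2 fold change 0.74, SE 0.08, edgeR adjusted p = 1.56e-06). MGST3, a microsomal form, was at 52.36, 45.08 and 51.20 against 71.14, 75.16 and 71.19 TPM (0.59, SE 0.08, edgeR adjusted p = 9.80e-06). GSTK1, the mitochondrial and peroxisomal kappa form, was at 108.85, 104.36 and 95.78 against 144.18, 134.85 and 144.36 TPM (0.50, SE 0.07, edgeR adjusted p = 1.32e-05). In all 3 genes the groups stood clear of each other.

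GSTZ1, which also works in tyrosine breakdown, GSTO1, the omega form, GSTM4 and GSTM3 rose by 0.49, 0.35, 0.31 and 0.24 on the log2 scale. GSTM3 missed the threshold without control replicate 2 (edgeR, adjusted p = 0.0859) or HOTAIR-N siRNA replicate 1 (0.0827). MGST1 was at 3.79 to 4.94 TPM over all libraries and did not pass (edgeR, adjusted p = 0.805), nor did GSTM2, with 4 to 18 expected counts (adjusted p = 0.69). Mu class genes are close copies, and the counts of GSTM2 and GSTM4 were not whole numbers in any library. Without GSTP1 the family summed to 473.4 ± 8.11 TPM with control siRNA and 612.1 ± 11.1 with HOTAIR-N siRNA, and with it to 2422.7 ± 131 and 880.8 ± 9.13 (SD, n = 3 each). GSTP1 therefore made up 81.2, 80.4 and 79.7% of transferase TPM with control siRNA and 28.8, 31.1 and 31.6% with HOTAIR-N siRNA.

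**Figure D3:**
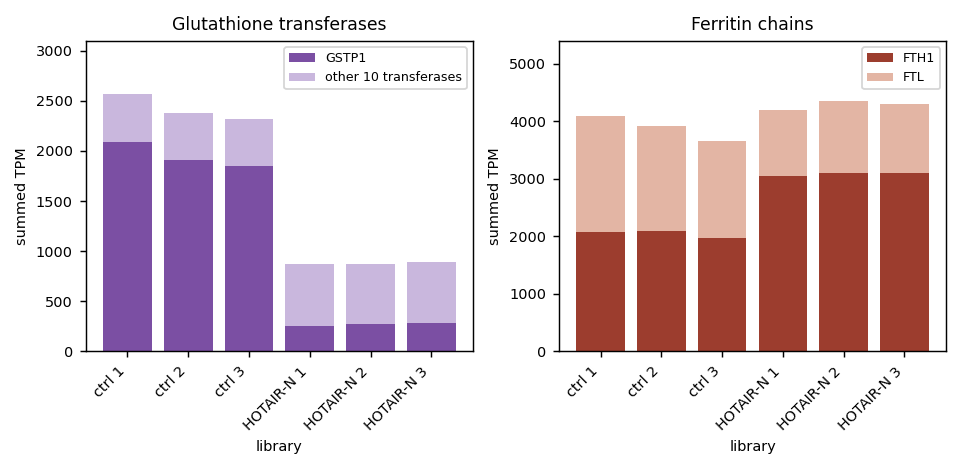
Stacked bars of TPM per library for the glutathione transferases (left, GSTP1 dark and the other 10 light) and for ferritin (right, FTH1 dark and FTL light). In the treated libraries the dark GSTP1 part shrinks from 79.7 to 81.2% of the bar to 28.8 to 31.6%, and the FTH1 part of the ferritin bars grows.

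The superoxide dismutases and catalase all passed as higher, as 28.7% of all tested genes did. SOD2, the mitochondrial manganese enzyme and also a known NF-kB target, was at 70.28, 65.43 and 70.62 TPM with control siRNA and 112.87, 105.43 and 114.44 with HOTAIR-N siRNA. All treated libraries were higher, with a log2 fold change of 0.83 (SE 0.06, edgeR adjusted p = 1.82e-08), the largest rise among the members. CAT, which breaks down hydrogen peroxide in peroxisomes, rose from 31.3 ± 0.98 to 36.9 ± 1.33 TPM (SD, n = 3 each), at 0.28 (edgeR, adjusted p = 0.00146). SOD1, the copper and zinc enzyme of the cytosol and the most abundant of the 3, was at 185.32, 175.81 and 181.72 against 194.94, 197.66 and 197.14 TPM. Its log2 fold change of 0.17 passed (edgeR, adjusted p = 0.0241), but not without control replicate 2 (adjusted p = 0.104) or without HOTAIR-N siRNA replicate 1, 2 or 3 (0.065, 0.0733 and 0.0848). With the replicate number as a block SOD1 did not pass either (adjusted p = 0.0645).

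Isoforms were examined because several of these genes have alternative first exons or splice forms. The tables list 132 RefSeq isoforms of the members, of which 81 were tested, 18 were higher and 7 lower (edgeR), beside 19.5% of all 32627 tested isoforms called. Against these 25 calls, 7 were made with the replicate number as a block and 16 without HOTAIR-N siRNA replicate 3. Of 19 members with 2 or more tested isoforms, TXNRD1 and NFE2L2 passed the test of isoform use (edgeR diffSpliceDGE with Simes p, adjusted p = 0.00499 and 0.00746), beside 4.13% of 7523 genes. On simulated isoform counts that kept the large spread of single isoforms, most calls of this test were false, so the values below are a description. Shared reads are divided between isoforms by estimation, and its error is not stated in the tables.

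For TXNRD1 the share of the gene taken by NM_182743 was 4.67, 6.06 and 5.24% with control siRNA and 3.31, 2.96 and 3.67% with HOTAIR-N siRNA. NM_182742 took 4.01, 3.43 and 2.86% against 1.98, 1.77 and 2.15%. Both shares were lower in all 3 treated libraries. The main isoform NM_001093771 took 43.45, 43.44 and 51.56% against 51.91, 51.51 and 49.82%, and its groups overlapped. It rose by 0.48 on the log2 scale (SE 0.09, edgeR adjusted p = 0.0182), and NM_182743 and NM_182742 had -0.35 and -0.47 and did not pass (adjusted p = 0.124 and 0.08). The call for TXNRD1 was lost without control replicate 2 (adjusted p = 0.059), without HOTAIR-N siRNA replicate 2 (0.0545) and with the replicate block (0.0653).

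For NFE2L2 the isoform that itself passed as lower was a rare one. NM_001313900 took 0.42, 0.33 and 0.70% of the gene with control siRNA and was listed at 0 in all 3 treated libraries. The main isoform NM_006164 took 77.95, 74.26 and 76.58% against 77.98, 76.27 and 77.56%, which overlapped. Its own level passed as higher, just inside the threshold (log2 fold change 0.24, SE 0.06, edgeR adjusted p = 0.0495). With a stricter filter on low counts the NFE2L2 call for isoform use was gone (adjusted p = 1). That call was also lost without any single HOTAIR-N siRNA library (adjusted p = 0.0846 to 0.0935) and with the replicate block (0.113). The members next in order, TKT, NQO1 and GCLM, did not pass (adjusted p = 0.902, 0.923 and 1).

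**Figure D4:**
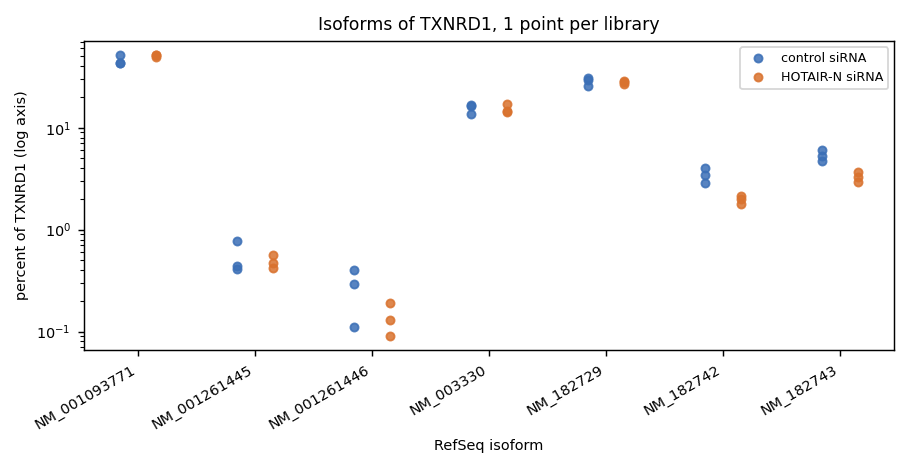
Percent of TXNRD1 made up by each of 7 RefSeq isoforms (log axis), 1 point per library, with control siRNA in blue and HOTAIR-N siRNA in orange. The groups separate for NM_182742 and NM_182743 and overlap for the other isoforms, NM_001093771 included.

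The partners and regulators of NRF2 were mostly lower. Of 16 genes, all tested, 10 fell, 4 rose and 2 did not pass, with a median log2 fold change of -0.24 (beside 57.5% of all genes called). FBXW11, an F-box protein that directs NRF2 to a second ubiquitin ligase, went from 44.04, 50.70 and 48.45 to 24.34, 24.22 and 23.78 TPM, at -0.94 (SE 0.06, edgeR adjusted p = 5.66e-09). NFE2L3, a relative of NRF2, had -0.69, and BACH2, a repressor at the same elements, -1.42 on 26 to 29 expected counts with control siRNA and 7 to 13 with HOTAIR-N siRNA. AMER1, reported as a KEAP1 binding protein, the small MAF gene MAFK and SQSTM1, the autophagy adaptor that sequesters KEAP1, rose by 0.68, 0.63 and 0.35.

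Other NRF2 targets were more often higher than lower. Of 23 genes 21 were tested, 11 rose, 6 fell and 4 did not pass, with a median log2 fold change of 0.17. The share called was 81%. Over all tested genes 57.5% passed, 28.7% as higher and 28.8% as lower. CBR3, a carbonyl reductase, went from 2.72, 3.72 and 3.37 to 8.58, 7.33 and 7.61 TPM, at 1.31 (SE 0.14, edgeR adjusted p = 1.89e-06). TRIM16 and the lipase ABHD4 rose by 0.93 and 0.92. Expected counts of TRIM16 were not whole numbers in any library, so the split of its reads is uncertain. The NADPH-forming isocitrate dehydrogenase IDH1 had -0.54 and UGDH, which makes UDP-glucuronate, -0.27. ALDH3A1, an aldehyde dehydrogenase, had -1.75 on 12 to 14 expected counts with control siRNA and 2 to 5 with HOTAIR-N siRNA.

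Of 26 other glutathione genes 21 were tested, 10 rose, 6 fell and 5 did not pass, with a median log2 fold change of 0.10. That is 76.2% called, beside 57.5% of all tested genes. CTH, which makes cysteine from cystathionine, went from 15.64, 17.54 and 16.44 to 46.45, 46.10 and 45.43 TPM, the largest rise of this list at 1.52 (SE 0.06, edgeR adjusted p = 1.55e-10). The glutaredoxin GLRX and GGCT, which breaks down gamma-glutamyl dipeptides, rose by 1.07 and 1.06. GGCT was abundant, at 108.56 to 123.35 TPM against 229.29 to 232.76. CHAC1, a glutathione-degrading enzyme, had -1.21, the mu class transferase GSTM1 -1.08, and GPX7, a peroxidase of the endoplasmic reticulum, passed as lower on 14 to 15 expected counts with control siRNA and 2 to 3 with HOTAIR-N siRNA (edgeR, adjusted p = 0.000188). Expected counts of GSTM1, like those of GSTM2 and GSTM4, were not whole numbers in any library, so the split of its reads is uncertain.

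Of 18 other thioredoxin and antioxidant genes 17 were tested, and 7 rose, 7 fell and 3 did not pass, with a median of -0.10. The share called was 82.4%, beside 57.5% of all tested genes. MSRB3, a methionine sulfoxide reductase, went from 28.77, 33.03 and 31.19 to 10.09, 9.87 and 10.54 TPM, at -1.53 (SE 0.06, edgeR adjusted p = 1.24e-10). TXNRD3, a thioredoxin reductase relative, had -1.37 and the stress kinase gene OXSR1 -0.79. The sestrins SESN3 and SESN1 and the thioredoxin inhibitor TXNIP rose by 1.60, 0.37 and 0.39, with SESN3 at 0.25 to 0.37 TPM against 0.74 to 1.03. Without control replicate 2, or without HOTAIR-N siRNA replicate 3, 4 genes of this list rose. Among the genes named from these lists, FBXW11, UGDH, ALDH3A1, GPX7, TXNRD3 and OXSR1, all lower, and SESN1, which was higher, carried one of the words described above. BACH2, NFE2L3, IDH1, GSTM1 and MSRB3, also lower, carried none, and CHAC1 was not searched. The other higher genes named carried none either. Over all genes searched, 463 carriers were higher and 1328 lower. These genes were named for the size of their change, and the words came from these same libraries. The match is therefore no independent evidence.

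**Figure D5:**
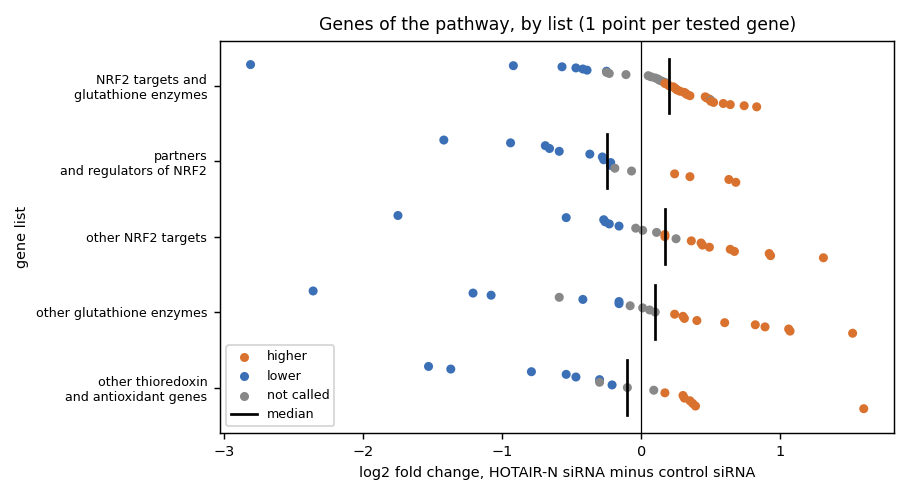
Log2 fold change of each tested gene (x axis) in the members and in 4 lists of other pathway genes, with the median of each list as a black bar. The medians are 0.20 for the members, -0.24 for partners and regulators of NRF2, 0.17 for other NRF2 targets, 0.10 for other glutathione enzymes and -0.10 for other thioredoxin and antioxidant genes.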

How the data were processed

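The 6 libraries, 3 per siRNA, were aligned and counted by the authors with STAR 2.6.0c and RSEM 1.3.0 on hg19, per the submitters' processing notes. Which annotation release and strand setting they used is not given in the sources read. Per the file headers, the deposited tables hold expected counts, TPM and FPKM for 27968 genes and 70006 isoforms, and each isoform as a percent of its gene. FPKM, as deposited, was not used. To within 1e-06, expected counts were not whole in 10.9% of gene values and 42.2% of isoform values, because reads matching several transcripts are divided.

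After rounding, expected counts were compared between siRNAs by edgeR 4.0.16 under R 4.3.3 (filterByExpr by group, TMM scaling, robust quasi-likelihood test), over all genes or isoforms, with Benjamini-Hochberg adjustment and a threshold of 0.05. Standard errors are the absolute log2 fold change divided by the square root of F. Means ± SD are of TPM over 3 libraries. Median shifts of all genes stayed at or below 0.028 (log2) under every scaling. Alternatives were RLE, upper-quartile and no scaling, other filters, DESeq2 1.42.0, limma-voom (limma 3.58.1), a test against a fold of 1.5, the replicate number as a block and each library left out. Steps were tested on simulated data, where false calls exceeded the threshold's nominal share for genes and made up most calls of isoform use when each isoform kept its own spread, and few changed isoforms were recovered.

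The members and lists were chosen with earlier results of these data known. Members were given in every library where they passed with an absolute log2 fold change of at least 0.5 or were the most abundant of their role, and further members were added after their values were seen. For isoform use, the 5 members with the smallest p were named, and of each other list up to 3 genes per direction with the largest change among those that passed. Symbols were matched to RefSeq promoters (GRCh38.p14) and GENCODE release 29 transcripts, whose build is not that of the tables, and no gene coordinates were transferred. For each gene the words were sought in the transcript of its most abundant coding RefSeq isoform that had a GENCODE match. Abundance was the mean TPM with control siRNA. For some genes, such as PRDX5, this was not the most abundant isoform of the gene.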

Additional observations from a re-analysis of the deposited data

How the results depend on the processing

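Over 582 values of the tested members under the alternatives, 531 kept their direction and their side of the threshold, 34 lost the call, 14 gained it and 3 reversed. Of the 34 losses, 25 came from the test against a fold of 1.5, where 1 member was higher and 2 lower, and over all genes 830 higher and 870 lower. Under that test the partners and regulators of NRF2 had 0 higher and 2 lower, other NRF2 targets 3 and 1, other glutathione enzymes 4 and 3, and other thioredoxin and antioxidant genes 1 and 3. That test asks for a larger change by construction. Leaving out each library in turn left 19 to 24 members higher and 6 to 7 lower, beside 3707 to 4661 and 3796 to 4573 of all genes. It also left 4 to 7 other thioredoxin and antioxidant genes higher, 16 to 22 isoforms of members called, and 0 to 2 members called for isoform use. GSTM2 ranged from -0.65 to 0.23 and MGST1 from -0.06 to 0.12, and neither passed. A stricter filter left 1 member called for isoform use.

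No text says that equal replicate numbers share a batch. The deviations of same-numbered libraries from their group means had correlations of -0.248, -0.037 and -0.089. Those of libraries with different numbers ran from -0.201 to 0.263. These values, from 3 libraries per group, cannot show whether the numbers pair the libraries. With the replicate number as a block, 7 isoforms of members were called instead of 25 and 0 members for isoform use instead of 2, SOD1 lost its call, and no other tested member changed its call. The cause was not tested. Genes with few counts, such as AKR1C3, GPX3 and GSTM2, have standard errors of 0.28 to 0.45 on the log2 scale, so small changes in them were not detectable at this depth.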
